A study of Arabidopsis thaliana with 24 samples.

Results

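The 10 genes described here make or regulate indole glucosinolates in Arabidopsis (Arabidopsis thaliana). They were chosen by name and gene identifier, and all 10 were found among the 26405 genes listed in the 24 libraries. Of these genes, 3 encode R2R3-MYB transcription factors, namely MYB51 (AT1G18570, at chr1:6389399-6391386 on the plus strand in TAIR10.1), MYB34 (AT5G60890) and MYB122 (AT1G74080). The other 7 encode enzymes, namely CYP79B2 (AT4G39950), CYP79B3 (AT2G22330), CYP83B1 (AT4G31500), SUR1 (AT2G20610), UGT74B1 (AT1G24100), SOT16 (AT1G74100) and CYP81F2 (AT5G57220). The question was whether the enzyme genes followed MYB51 over organ, ploidy and NaCl.

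Neo-tetraploid and diploid wild-type Col-0 plants were grown for 2 weeks on agar-solidified quarter-strength Hoagland medium with sucrose, with 35 mM NaCl added or with none (control). The wild-type neo-tetraploid lines were obtained from an earlier study by Chao and colleagues. How many independent lines were used is not given in the sources used here. Roots and shoots were sequenced separately, so that there were 8 groups of 3 replicate libraries, in this order within each organ: neo-tetraploid NaCl, neo-tetraploid control, diploid NaCl and diploid control. Each replicate holds pooled plants from a single experiment, so a p-value measures the spread between these pools.

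Indole glucosinolates are sulphur-rich defence compounds of the Brassicales that are made from tryptophan. CYP79B2 and CYP79B3 turn tryptophan into indole-3-acetaldoxime, from which the phytoalexin camalexin and some auxin can also be made. CYP83B1 oxidises the aldoxime, SUR1 cleaves the sulphur conjugate that follows, UGT74B1 adds glucose, and SOT16 adds the sulphate group that completes indol-3-ylmethyl glucosinolate. CYP81F2 then hydroxylates the indole ring of the finished compound, a step needed for its use in defence against fungi and aphids. MYB51, MYB34 and MYB122 activate the pathway together with MYC transcription factors. MYB51 is known mainly from shoots and from the answer to microbial elicitors, and MYB34 mainly from roots and from the answer to jasmonate.

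The expected counts, RSEM's estimates of the reads that come from each gene, summed to 11202503 to 11909554 per library. The 5 root markers summed to 4385 to 8292 FPKM (reads scaled to gene length and to the size of the library) in the root libraries, against 149 to 309 FPKM in the shoot libraries, and the 5 shoot markers to 70.2 to 258 FPKM in roots, against 34584 to 43341 FPKM in shoots. The labelled organs therefore carried their own markers. Some libraries stood apart from others of their group in the genes described here. Replicate 1 of the diploid NaCl roots was high in MYB51, MYB122, CYP79B2 and CYP81F2, and there the 3 genes of the camalexin branch (CYP71A12, CYP71A13 and PAD3) summed to 622 FPKM, against 45.9 and 43.5 FPKM in replicates 2 and 3. In NaCl shoots, replicate 2 of both ploidies was high in MYB34 and in 6 of the enzyme genes, and there 8 jasmonate markers summed to 4385 FPKM in the neo-tetraploid library and to 2476 FPKM in the diploid library. In the other 4 NaCl shoot libraries they summed to 1302 and 1841 FPKM in neo-tetraploids and to 935 and 1162 FPKM in diploids. What set these libraries apart was not tested, and results that rest on them are given with and without them.

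The 3 regulators were present in different proportions in the 2 organs. MYB34 had the largest share of the regulators' FPKM in all 12 root libraries, MYB51 was lower in roots than in shoots, and MYB122 had few or no counts in shoots. MYB51 had 6.30 to 38.5 FPKM in the 12 root libraries, with a median of 10.5, against 14.97 to 91.8 FPKM in the 12 shoot libraries, with a median of 36.4. The ranges overlapped, and the log2 fold change of root over shoot, averaged over the 4 conditions, was -1.75 ± 0.28 (SE, adjusted p = 9.02e-06, edgeR's quasi-likelihood test over all genes). MYB34 had 52.1 to 108 FPKM in roots, with a median of 89.1, against 17.4 to 147 FPKM in shoots, with a median of 38.0. Only 3 shoot libraries reached into the root range of MYB34, replicates 2 and 3 of the neo-tetraploid NaCl shoots and replicate 2 of the diploid NaCl shoots. Its organ difference did not pass the test (log2 0.28 ± 0.26, adjusted p = 0.337). It did without replicate 2 of both NaCl shoot groups (0.76 ± 0.17, adjusted p = 4.04e-04), a choice made after the data were seen. It also did with scaling by library size (0.85, adjusted p = 0.00398). That scaling moved the median log2 fold change of all genes as well, to 0.59, against 0.04 with the scaling used otherwise (TMM).

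MYB122 had 2.92 to 15.2 FPKM in roots, from 46 to 239 counts per library, against 0 to 0.31 FPKM in shoots, from 0 to 5 counts. In 4 of the 12 shoot libraries it had no count, which allows up to 3 counts there. The lowest root value was 9.42 times the highest shoot value, and MYB122 was called higher in roots (adjusted p = 8.67e-11), with a log2 fold change of 5.27 that depends on how such low counts are treated. As a share of the summed FPKM of the 3 regulators, MYB51 held 5.7 to 40.9% in roots, with a median of 11.5%, against 9.2 to 66.9% in shoots, with a median of 52.7%. In bulk tissue, a change in the share of cells that express a gene and a change in RNA per cell cannot be told apart.

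Among the enzyme genes, the CYP79B pair was divided between the organs. CYP79B2 had 55.2 to 300 FPKM in roots, with a median of 127, against 29.4 to 91.8 FPKM in shoots, with a median of 52.3, and was called higher in roots (log2 0.76 ± 0.22, adjusted p = 0.00358). CYP79B3 had 48.7 to 133 FPKM in roots, with a median of 88.2, against 40.3 to 151 FPKM in shoots, with a median of 73.8. The ratio of the 2 genes within a library does not depend on how libraries are scaled, and it separated the organs without overlap. CYP79B2 was 1.10 to 2.33 times CYP79B3 in the 12 root libraries, with a median of 1.44, and 0.50 to 0.937 times CYP79B3 in the 12 shoot libraries, with a median of 0.679. The difference of the log2 ratios was 1.12 (2-sided permutation test over libraries with 100000 permutations, p = 1e-05, the smallest they can give), in a comparison chosen after the values were seen. The ratio was highest in replicate 1 of the diploid NaCl roots and lowest in replicate 3 of the neo-tetraploid NaCl shoots.

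**Figure D1:**
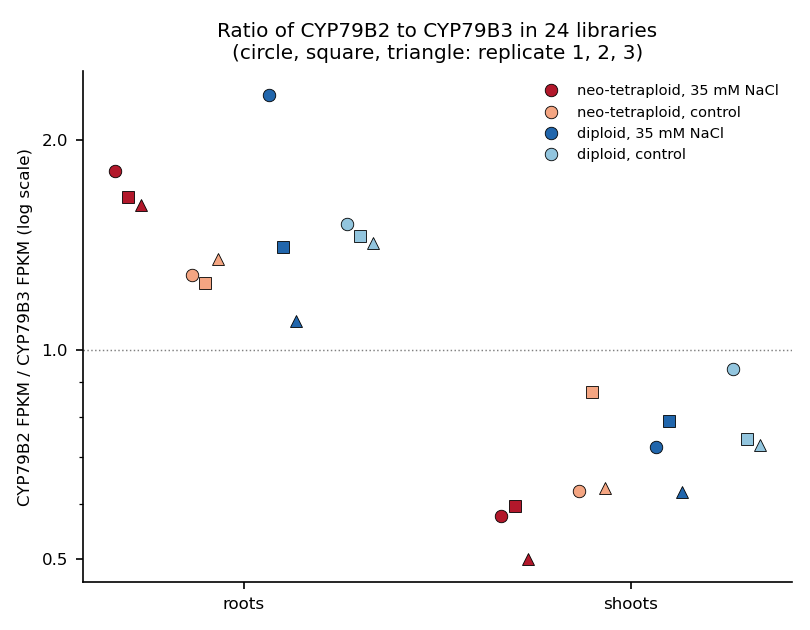
Ratio of the FPKM of CYP79B2 to that of CYP79B3 in each of the 24 libraries, on a log scale, with roots left of shoots and the dotted line at a ratio of 1, colours for the 4 conditions and marker shapes for the replicates. All root libraries lie above 1, from 1.10 to 2.33, and all shoot libraries below it, from 0.50 to 0.937.

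CYP79B2 lies on chromosome 4 and CYP79B3 on chromosome 2. The upstream sequences of this pair are shown because both genes have the same step in the pathway and yet differ between organs. In the RefSeq annotation of the TAIR10.1 assembly, the 250 bases before the annotated start lie at chr4:18524792-18525041 for CYP79B2 and at chr2:9488163-9488412 for CYP79B3, both on the plus strand. Capitals mark runs of at least 12 bases that are present in both windows, read 5′ to 3′.

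CYP79B2: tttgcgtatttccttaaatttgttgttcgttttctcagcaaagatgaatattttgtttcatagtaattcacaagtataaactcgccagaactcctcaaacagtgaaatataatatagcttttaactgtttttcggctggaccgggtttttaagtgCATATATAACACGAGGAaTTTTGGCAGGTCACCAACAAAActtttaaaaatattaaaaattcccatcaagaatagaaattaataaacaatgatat

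CYP79B3: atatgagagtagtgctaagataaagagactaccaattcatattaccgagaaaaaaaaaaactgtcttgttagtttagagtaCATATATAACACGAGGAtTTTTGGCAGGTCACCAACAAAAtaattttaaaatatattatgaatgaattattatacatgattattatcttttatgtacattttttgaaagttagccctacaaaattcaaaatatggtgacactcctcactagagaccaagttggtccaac

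The windows share a run of 17 bases and, after a single differing base, a run of 22 bases. The runs lie at positions -95 to -79 and -77 to -56 from the start of CYP79B2 and at -169 to -153 and -151 to -130 from that of CYP79B3. Each run was found in these 2 windows and in no other of the 27443 windows of protein-coding genes on the same strand. Among the 45 pairs of the 10 genes, the longest run that any other pair shared had 13 bases. The G-box bound by MYC factors (CACGTG, both strands) was in 1 of the 10 windows, that of SUR1, and in 6.49% of all windows. The windows say nothing of sequence outside these 250 bases.

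The other enzyme genes were of a similar level in both organs on the FPKM scale. CYP83B1 had 93.1 to 193 FPKM in roots, against 86.9 to 235 FPKM in shoots. SUR1 had 54.6 to 101 FPKM in roots, against 51.4 to 143 FPKM in shoots, and UGT74B1 had 32.9 to 66.1 FPKM in roots, against 27.8 to 81.2 FPKM in shoots. SOT16 had 61.7 to 109 FPKM in roots, against 51.4 to 154 FPKM in shoots. For each of these genes the root range lay within the shoot range. CYP81F2 had 5.90 to 68.4 FPKM in roots, against 4.58 to 91.1 FPKM in shoots, the widest relative range of the enzyme genes in either organ, and its organ difference did not pass the test (log2 0.06 ± 0.37, adjusted p = 0.887).

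In all, 8 of the 10 genes were called different between the organs, in a contrast in which 82% of the 21338 genes tested were called. With scaling by library size alone, the median log2 fold change of all genes moved to 0.59, against 0.04 with TMM scaling. CYP79B3, CYP83B1, SUR1 and UGT74B1 were called lower in roots with TMM (log2 -0.42 to -0.56), but had values above 0, not called, with library-size scaling (0.0052 to 0.14) and with limma on log2(FPKM + 1). Without replicate 2 of both NaCl shoot groups, CYP79B3 (-0.28) and CYP83B1 (-0.27) were not called. SOT16 was called lower in roots with TMM (log2 -0.66 ± 0.14, adjusted p = 2.62e-04) and kept its sign without being called with library-size scaling (-0.10). MYB51, MYB122 and CYP79B2 kept their direction and their call under both scalings and with limma.

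In control roots, MYB51 differed between the ploidies while the enzyme genes of the core pathway lay close together. MYB51 had 25.3, 32.5 and 38.5 FPKM in the neo-tetraploid replicates, against 7.64, 8.89 and 8.82 FPKM in the diploid replicates. All neo-tetraploid values lay above all diploid values. The log2 fold change was 1.98 ± 0.57 with an adjusted p of 0.101 in the model of all 12 root libraries, so MYB51 was not called there. It was called in a model of the 6 control libraries alone (adjusted p = 4.74e-04) and in the 12-library model without replicate 1 of the diploid NaCl roots (log2 1.97, adjusted p = 0.00801), a library that is not in the contrast and enters only through the estimate of the spread.

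CYP79B2 had 170, 126 and 117 FPKM in neo-tetraploid control roots, against 156, 134 and 128 FPKM in diploid control roots. The groups overlapped, with a log2 fold change of 0.05 ± 0.45. CYP83B1 (0.07 ± 0.19), UGT74B1 (0.03 ± 0.21), SOT16 (0.23 ± 0.16) and CYP79B3 (0.24 ± 0.29) had log2 differences of at most 0.24, and SUR1 had -0.23 ± 0.21. CYP81F2, which acts after the core pathway, had the largest value of the enzyme genes, in the direction of MYB51 (0.63 ± 0.67, adjusted p = 0.729, edgeR). Its groups overlapped, with means of 46.6 FPKM in neo-tetraploids and 31.3 FPKM in diploids. MYB34 had 95.5, 73.0 and 52.1 FPKM in neo-tetraploid control roots, against 108, 87.7 and 80.2 FPKM in diploid control roots (log2 -0.26 ± 0.23, overlapping groups). SOT16 had 109.26, 101.18 and 108.27 FPKM in neo-tetraploids, against 84.51, 97.27 and 101.14 FPKM in diploids, so the groups were just clear of each other. MYB122 had 3.77, 3.32 and 3.59 FPKM in neo-tetraploids, all below the diploid values of 4.58, 6.52 and 4.33 FPKM (log2 -0.48 ± 0.47, adjusted p = 0.707).

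None of the 10 genes was called in this comparison by edgeR, and 1, MYB51, had an unadjusted p under 0.05, with the same counts by DESeq2. Of all genes tested, 2.31% were called and 14.6% had an unadjusted p under 0.05. The median log2 fold change of the 10 genes was 0.06, against -0.01 for all genes. Of 11 genes known from the early answer to microbial elicitors, 7 were called higher in neo-tetraploid control roots, and all 11 had values above 0, with a median of 1.39. WRKY46 (log2 3.52, adjusted p = 0.00112), WRKY40 (2.57, 0.00443) and WRKY53 (1.58, 0.00243), which encode WRKY transcription factors, had the largest values. This list summed to 500 to 754 FPKM in neo-tetraploid control roots, against 238 to 279 FPKM in diploid control roots. Its part in the level of MYB51 was not tested. Of 9 genes of the aliphatic glucosinolate pathway that were tested, none was called by edgeR and 1 had an unadjusted p under 0.05, and none had a value above 0 (median -0.30). Among 15 further genes of the indole pathway, 1 was called, GTR2, which encodes a glucosinolate transporter (log2 0.52, adjusted p = 0.033). Of the MYC genes, MYC2 was called higher in neo-tetraploids (log2 0.69, adjusted p = 0.0162, edgeR). MYC3 (0.15, 0.682) and MYC4 (-0.34, 0.159) were not called. The part of MYC2 in the level of MYB51 was not tested.

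In NaCl roots, the ploidies overlapped in all 10 genes, and the share of all genes that did so is not given here. MYB51 had 12.1, 8.39 and 26.3 FPKM in neo-tetraploids, against 38.3, 6.30 and 8.30 FPKM in diploids. Each group thus held a single high library, replicate 3 in neo-tetraploids and replicate 1 in diploids. None of the 10 genes was called by edgeR or by DESeq2 (0 and 1 with an unadjusted p under 0.05), where 0.252% of all genes were called. Averaged over the treatments, again none was called in roots (1 with an unadjusted p under 0.05 by edgeR and 2 by DESeq2), against 5.05% of all genes. MYB51 had a log2 value of 0.95 ± 0.39 there (adjusted p = 0.178), which became 1.58 (adjusted p = 0.00456) without replicate 1 of the diploid NaCl roots.

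The difference of the NaCl responses of the ploidies in roots was -2.07 ± 0.79 on the log2 scale for MYB51 (unadjusted p = 0.0211, adjusted p = 0.742) and lay between -0.47 and 0.44 for MYB34, MYB122 and 6 of the enzyme genes. CYP81F2 had -1.72 ± 0.97 (adjusted p = 0.828). No gene of the 20239 tested was called by edgeR for this difference (0%), so the count of 0 among the 10 genes, also 0 by DESeq2, is no result about them.

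**Figure D2:**
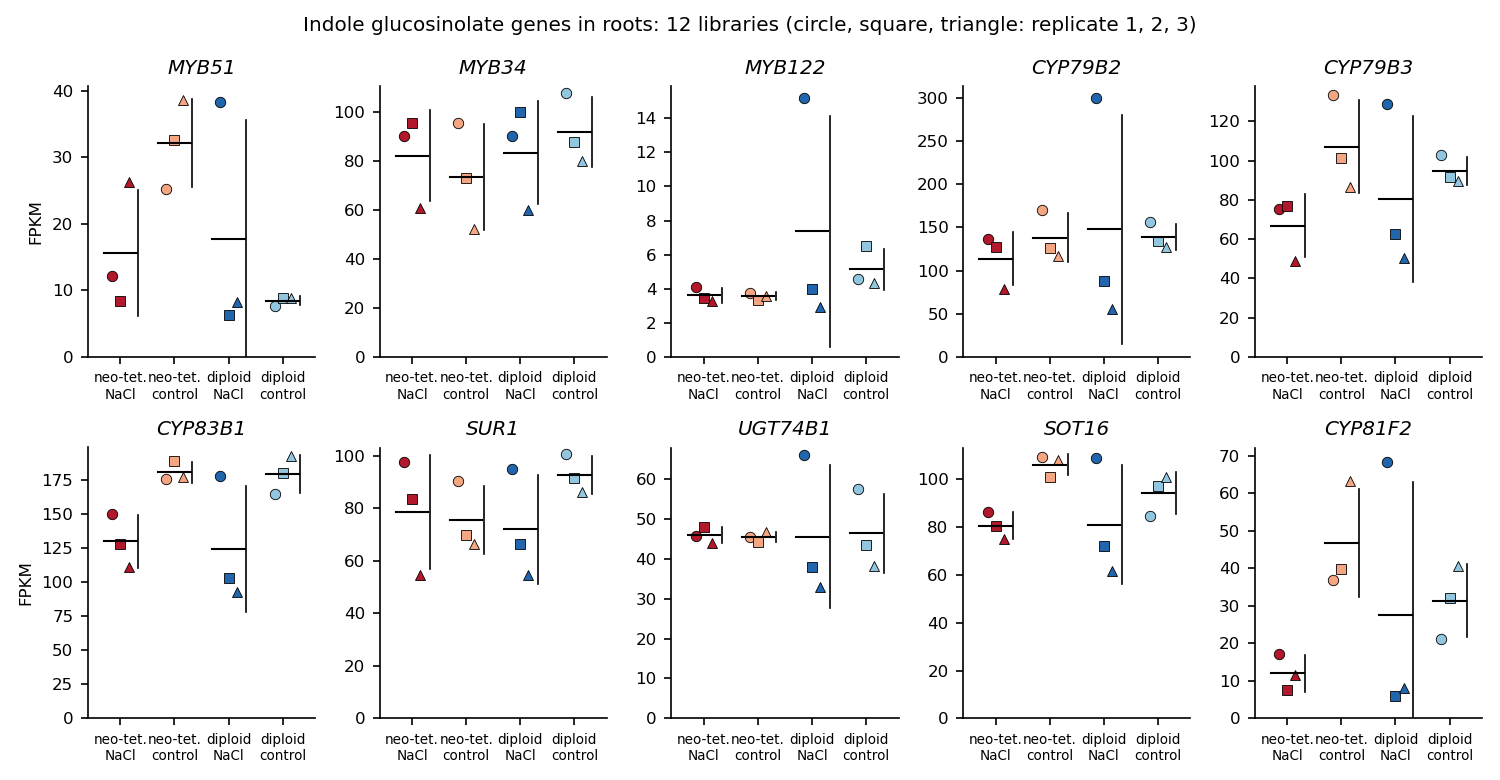
Levels (FPKM) in the 12 root libraries, 1 panel for each of the 10 genes, with neo-tetraploid (neo-tet.) groups left of diploid groups and NaCl left of control. Markers are replicates 1 (circle), 2 (square) and 3 (triangle), the horizontal line is the mean and the vertical line the mean ± SD (n = 3), cut at 0. MYB51 lies at 25.3 to 38.5 FPKM in neo-tetraploid control roots and at 7.64 to 8.89 FPKM in diploid control roots, and replicate 1 of the diploid NaCl roots is the highest of its group in 9 of the genes.

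In roots, CYP83B1 and SOT16 were lower with NaCl on average over the ploidies, while MYB34 lay close to its control level. CYP83B1, which commits the aldoxime to glucosinolates, had 150, 128 and 111 FPKM in neo-tetraploid NaCl roots, against 176, 189 and 177 FPKM in neo-tetraploid control roots. In diploids it had 178, 103 and 93.1 FPKM in NaCl roots, against 165, 180 and 193 FPKM in control roots. Only replicate 1 of the diploid NaCl roots lay within the control range. Averaged over ploidies, CYP83B1 fell by 0.57 on the log2 scale (SE 0.14, adjusted p = 0.0117). SOT16 had 86.5, 80.4 and 75.2 FPKM in neo-tetraploid NaCl roots, against 109, 101 and 108 FPKM in neo-tetraploid control roots. In diploids it had 109, 72.2 and 61.7 FPKM in NaCl roots, against 84.5, 97.3 and 101 FPKM in control roots. The neo-tetraploid groups did not overlap and the diploid groups did, and the averaged difference was -0.38 ± 0.12 (adjusted p = 0.0368). CYP83B1 was called with each of the 12 root libraries omitted in turn, and SOT16 with 3 of them omitted (replicate 1 of the neo-tetraploid NaCl, diploid NaCl or diploid control roots).

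These 2 genes were called among the 10, both lower in NaCl roots, where 19% of all genes tested were called in either direction. A count of 2 in 10 is close to that share, so it is no result about the 10 genes as a set. The median log2 fold change of the 10 genes was -0.20, against 0.01 for all genes. CYP79B3 had 75.4, 76.7 and 48.7 FPKM in neo-tetraploid NaCl roots, against 133, 102 and 86.6 FPKM in neo-tetraploid control roots, without overlap. In diploids it had 129, 62.7 and 50.1 FPKM in NaCl roots, against 103, 91.6 and 89.7 FPKM in control roots, and the averaged difference of -0.53 ± 0.20 did not pass the test (adjusted p = 0.0871). CYP81F2 had 17.3, 7.43 and 11.5 FPKM in neo-tetraploid NaCl roots, against 36.9, 39.9 and 63.2 FPKM in neo-tetraploid control roots. In diploids it had 68.4, 5.90 and 8.01 FPKM in NaCl roots, against 21.2, 32.2 and 40.7 FPKM in control roots. All NaCl root libraries but replicate 1 of the diploids lay below all control root libraries in CYP81F2, and the averaged difference was -1.14 ± 0.49 (adjusted p = 0.119).

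Without replicate 1 of the diploid NaCl roots, 5 genes were called lower in NaCl roots on average. They were CYP81F2 (log2 -2.12, adjusted p = 1.54e-04), CYP79B3 (-0.77, 0.00233), CYP83B1 (-0.73, 1.8e-04), CYP79B2 (-0.68, 0.0115) and SOT16 (-0.50, 0.00109). The share of all genes called without that library is not given here, so the count of 5 cannot be set against it. The regulators were not called with or without that library. MYB34 had averaged log2 differences of -0.06 ± 0.16 with it and -0.08 without it. MYB51 had -0.06 ± 0.39 with all libraries, and from -0.67 to 0.16 with each of the 12 root libraries omitted in turn. Within a ploidy, the NaCl difference of MYB51 was -1.09 ± 0.545 in neo-tetraploid roots and 0.98 ± 0.57 in diploid roots (adjusted p = 0.279 and 0.305, edgeR). SUR1 (-0.23 ± 0.15) and UGT74B1 (-0.07 ± 0.15), which act between CYP83B1 and SOT16, were not called, with adjusted p-values of 0.321 and 0.769.

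Within a ploidy, none of the 10 genes was called for NaCl by edgeR in roots. In neo-tetraploid roots 4 had an unadjusted p under 0.05 (the same number and no call by DESeq2), as had 20.8% of all genes, of which 6.56% were called. They were CYP79B3, CYP83B1, SOT16 and CYP81F2, and these are the 4 genes whose NaCl and control values did not overlap. This is not separate evidence, since the p-values rest on the same libraries. The share of all genes without overlap is not given here for either ploidy. In diploid roots 1 had an unadjusted p under 0.05, CYP83B1, which DESeq2 called (adjusted p = 0.0211), where 25.7% of all genes had such a p and 9.64% were called by edgeR. All 10 genes overlapped between the diploid groups. Without replicate 1 of the diploid NaCl roots, 5 genes were called in diploid roots and 4 in neo-tetraploid roots. The shares of all genes called in that fit are not given here.

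Of the 15 further genes of the indole pathway, 6 were called lower and none higher in NaCl roots on average. In this contrast 19% of all genes tested were called in either direction, so the counts in these short lists are given as descriptions. IGMT2, whose product methylates the hydroxyl group that CYP81F2 adds, had the largest difference (log2 -1.37, adjusted p = 0.0107), followed by CYP81F4, a relative of CYP81F2 (-0.61, 0.00534), and PEN3, a transporter of the plasma membrane (-0.58, 0.0149). Of the 5 shoot markers, 2 were called higher in NaCl roots, LHCB1.3 (log2 0.80, adjusted p = 0.00773) and RBCS1A (0.62, 0.0159), and they summed to 160 to 258 FPKM in neo-tetraploid NaCl roots, against 70.2 to 121 FPKM in neo-tetraploid control roots, and to 138 to 257 FPKM in diploid NaCl roots, against 130 to 192 FPKM in diploid control roots. TGG1 was the only one of them at 0 in any root library. Of the 5 root markers none was called by edgeR (2 with an unadjusted p under 0.05) and none had a value above 0. They summed to 4992 to 6996 FPKM in neo-tetraploid NaCl roots, against 6430 to 6784 FPKM in neo-tetraploid control roots, and to 4385 to 6518 FPKM in diploid NaCl roots, against 6290 to 8292 FPKM in diploid control roots. The part of these markers in the values of the 10 genes was not tested. Of 11 genes of tryptophan synthesis, 1 was called, PAI3, which was higher (0.49, 0.0338). Of the 11 elicitor genes, 3 were called lower and none had a value above 0. IGMT1 and IGMT2 are near-identical neighbours, and the division of reads between them is uncertain.

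In control shoots, CYP81F2 was above the diploid range in all 3 neo-tetraploid replicates and MYB51 in 2 of them, and neither gene was called. MYB51 had 37.5, 78.0 and 91.8 FPKM in neo-tetraploids, against 19.9, 43.3 and 35.3 FPKM in diploids, and the groups overlapped in replicate 1 of the neo-tetraploids. CYP81F2 had 22.4, 71.1 and 91.1 FPKM in neo-tetraploids, against 7.28, 17.1 and 11.1 FPKM in diploids, without overlap. The log2 fold changes were 1.09 ± 0.44 for MYB51 (adjusted p = 0.512) and 2.40 ± 0.70 for CYP81F2 (unadjusted p = 0.00595, adjusted p = 0.457). The core enzyme genes had smaller values, from -0.31 ± 0.43 for SUR1 to 0.59 ± 0.34 for CYP83B1. MYB122 had too few counts in shoots to be tested.

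None of the 9 genes tested was called for ploidy in control shoots (2 with an unadjusted p under 0.05 by edgeR and by DESeq2, no call by either), against 0.0104% of all genes. In NaCl shoots, likewise, none was called (0 with an unadjusted p under 0.05 by either tool), against 0.0104% of all genes. Averaged over treatments none was called (2 with an unadjusted p under 0.05 by either tool), against 0.0261%, and neither was any for the difference of the NaCl responses (1 by either tool), against 0%. With so few calls over all genes, these counts of 0 carry little. The difference of the NaCl responses was -2.34 ± 0.97 for CYP81F2 and -1.20 ± 0.62 for MYB51, and between -0.42 and 0.45 for MYB34 and the other enzyme genes.

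**Figure D3:**
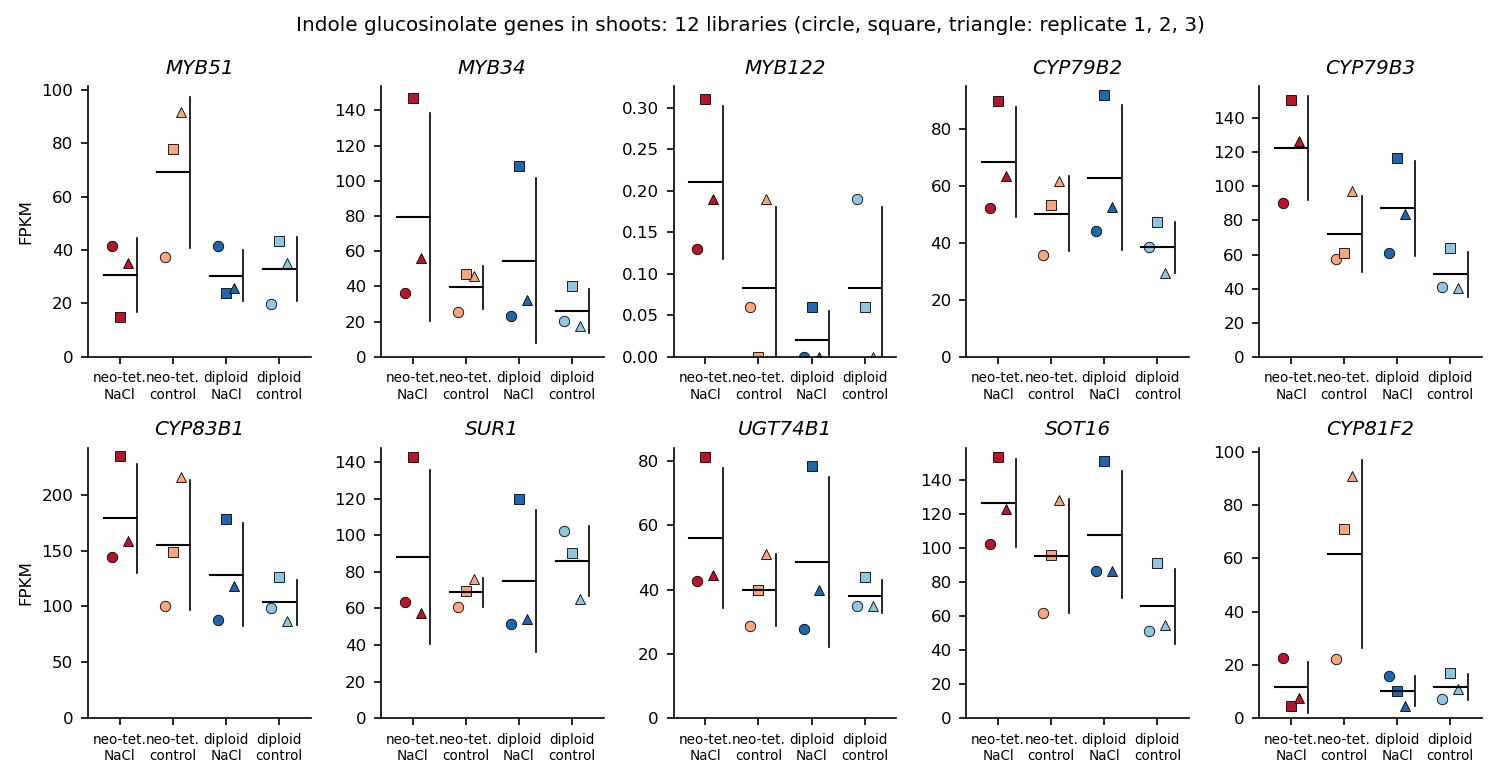
Levels (FPKM) in the 12 shoot libraries, 1 panel for each of the 10 genes, drawn as for roots, with neo-tetraploid (neo-tet.) groups left of diploid groups and NaCl left of control. Replicate 2 (square) of both NaCl groups is the highest of its group in MYB34 and in CYP79B2, CYP79B3, CYP83B1, SUR1, UGT74B1 and SOT16, and MYB122 stays at or below 0.31 FPKM.

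MYB34 and CYP79B3 had higher values in NaCl shoots than in control shoots of the same replicate number, differences that edgeR called only with the replicate number as a block. MYB34 had 36.0, 147 and 56.0 FPKM in neo-tetraploid NaCl shoots, against 25.5, 46.9 and 45.8 FPKM in neo-tetraploid control shoots. In diploids it had 23.0, 108 and 32.1 FPKM in NaCl shoots, against 20.5, 40.1 and 17.4 FPKM in control shoots. Each NaCl value was above the control value with the same replicate number, while the groups overlapped. CYP79B3 had 90.1, 151 and 127 FPKM in neo-tetraploid NaCl shoots, against 57.2, 61.1 and 97.5 FPKM in neo-tetraploid control shoots. In diploids it had 61.1, 116 and 84.0 FPKM in NaCl shoots, against 41.1, 63.6 and 40.3 FPKM in control shoots. Here, too, every NaCl value was above the control value of its number and the groups overlapped.

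Averaged over ploidies, none of the 9 genes tested was called by edgeR, where 5.03% of all genes were called. An unadjusted p under 0.05 was found for 5 of them, against 25.7% of all genes (6 of them by DESeq2, which called CYP79B3 and CYP81F2). The log2 fold changes were 0.82 ± 0.22 for CYP79B3 (adjusted p = 0.0568), 1.07 ± 0.48 for MYB34 (0.19), 0.59 ± 0.24 for CYP79B2 (0.158), 0.57 ± 0.25 for SOT16 (0.176) and -1.30 ± 0.49 for CYP81F2 (0.131). In shoots, libraries with the same replicate number deviated together. With the replicate number as a block, 4 genes were called higher in NaCl shoots, where 17.9% of all genes were called in either direction. They were CYP79B3 (0.79 ± 0.15, adjusted p = 0.00883), SOT16 (0.57 ± 0.15, 0.0331), CYP79B2 (0.54 ± 0.15, 0.0352) and MYB34 (0.81 ± 0.22, 0.0355). MYB51 had -0.65 ± 0.31 without the block and -0.64 ± 0.34 with it (adjusted p = 0.209 and 0.216).

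Without replicate 2 of both NaCl shoot groups, a choice made after the data were seen, the averaged values were 0.11 for MYB34 (adjusted p = 0.856), 0.23 for CYP79B2, 0.28 for SOT16 and 0.55 for CYP79B3 (adjusted p = 0.151). Within a ploidy, none was called by edgeR in neo-tetraploid shoots (3 with an unadjusted p under 0.05), against 0.0104% of all genes, and DESeq2 called CYP81F2 there (log2 -2.46, adjusted p = 0.0186). In diploid shoots none was called by edgeR or DESeq2 (3 with an unadjusted p under 0.05 by each), against 0% of all genes, and with the block CYP79B3 was called (0.89 ± 0.21, adjusted p = 0.0369), against 6.88% of all genes. CYP81F2 had 22.7, 4.62 and 7.64 FPKM in neo-tetraploid NaCl shoots and 15.9, 10.3 and 4.58 FPKM in diploid NaCl shoots. The neo-tetraploid NaCl values overlapped with the control values given above only through replicate 1 of both groups.

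Of the 15 further genes of the indole pathway, 3 were called for NaCl in shoots on average, where 5.03% of all genes were called. The counts in these short lists are given as descriptions. IGMT2 (log2 -2.36, adjusted p = 0.0457) and IGMT1 (-1.36, 0.04), which act after CYP81F2, were lower, and GTR1, which encodes a glucosinolate transporter, was higher (1.14, 0.0485). Of 8 jasmonate markers, all had values above 0 (median 1.57) and LOX2, which encodes a lipoxygenase of jasmonate synthesis, was called (1.77, 0.0092). These markers summed to 1302 to 4385 FPKM in neo-tetraploid NaCl shoots, against 805 to 1356 FPKM in neo-tetraploid control shoots, and to 935 to 2476 FPKM in diploid NaCl shoots, against 431 to 808 FPKM in diploid control shoots. None of them was at 0 in any shoot library. Their part in the level of MYB34 was not tested.

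The NaCl response of CYP79B3 differed between the organs. Its log2 response, averaged over ploidies, was lower in roots than in shoots by 1.35 ± 0.32 (adjusted p = 0.0218), and it was the only one of the 10 genes called in this comparison by edgeR, where 5.13% of all genes were called. SOT16 (-0.95 ± 0.28, adjusted p = 0.0552) and CYP83B1 (-0.84 ± 0.29, 0.0943) lay in the same direction, and DESeq2 called both. MYB34 had -1.13 ± 0.53 (0.209) and MYB51 0.60 ± 0.55 (0.565). The value for CYP79B3 lay between -1.61 and -1.20, and passed the test, whichever 1 of the 24 libraries was omitted. Without replicate 2 of both NaCl shoot groups it was -1.08 with an adjusted p of 0.0538. Without replicate 1 of the diploid NaCl roots, CYP79B2, CYP83B1 and SOT16 were called as well, in a fit whose share of all genes called is not given here. For the difference of the ploidy effects between organs, none of the 10 genes was called (0 with an unadjusted p under 0.05 by edgeR and 1 by DESeq2, no call by either), against 0.00469% of all genes.

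**Figure D4:**
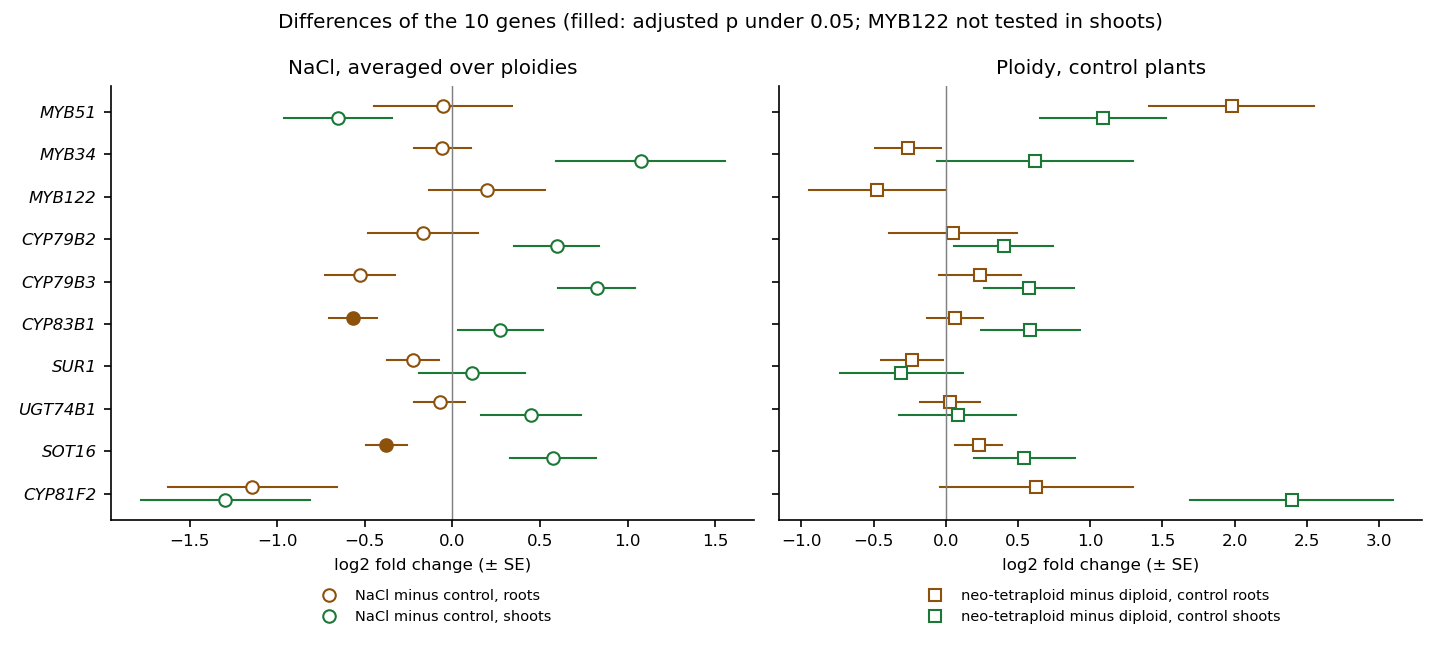
Log2 fold changes (points) with their SE (lines) for the 10 genes, on the left NaCl minus control averaged over ploidies and on the right neo-tetraploid minus diploid in control plants, with roots in brown and shoots in green. Circles stand for NaCl, squares for ploidy, and filled points passed an adjusted p of 0.05. CYP83B1 (-0.57) and SOT16 (-0.38) in NaCl roots are the filled points, and the NaCl values of CYP79B3 are -0.53 in roots and 0.82 in shoots.

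Whether the enzyme genes followed a regulator was then asked over the 12 libraries of each organ, with counts on the log2 scale after TMM scaling to library size, and with 35 relations in all. In shoots, 5 of the 6 genes that build the indol-3-ylmethyl glucosinolate, all but SUR1, correlated with MYB34, and CYP81F2, which modifies it, correlated with MYB51.

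Over the 12 shoot libraries, MYB34 correlated with CYP79B2 (Pearson r = 0.957, permutation p = 5e-05, adjusted p = 5.83e-04, Spearman rho = 0.930, permutation p = 7e-05). The other genes with an adjusted p under 0.05 against MYB34 were UGT74B1 (r = 0.929, rho = 0.832), SOT16 (r = 0.912, rho = 0.909), CYP83B1 (r = 0.908, rho = 0.937) and CYP79B3 (r = 0.890, rho = 0.888), with adjusted permutation p-values of r from 5.83e-04 to 0.00152 and of rho from 0.00122 to 0.00787. Leaving out the 2 libraries farthest from the median of MYB34, which are replicate 2 of both NaCl groups, gave r from 0.731 to 0.899 for these 5 genes. SUR1 had r = 0.673 (adjusted permutation p = 0.0659) and r = -0.07 without those 2 libraries, so its relation rested on them. CYP81F2 had r = -0.10 against MYB34.

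MYB51 correlated with CYP81F2 over the same 12 libraries (r = 0.934, permutation p = 8e-05, adjusted p = 7e-04, rho = 0.874, permutation p = 5.1e-04), and r was 0.813 without the 2 libraries farthest from the median of MYB51. The other 6 enzyme genes had r between -0.41 and 0.05 against MYB51, none with an adjusted p under 0.05. Replicate 2 of the neo-tetraploid NaCl shoots shows the division within a library. It had the highest MYB34 of all shoots (147 FPKM) with the lowest MYB51 (14.97 FPKM), and it had the highest SOT16 (154 FPKM) with a CYP81F2 of 4.62 FPKM. Replicate 3 of the neo-tetraploid control shoots had the highest MYB51 (91.8 FPKM) and the highest CYP81F2 (91.1 FPKM), at a MYB34 of 45.8 FPKM.

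The same 6 relations had an adjusted p under 0.05 with deviations from the group means, for which values were exchanged within groups only (1296 arrangements, exact permutation test). MYB34 then had r = 0.967 with CYP79B2 (adjusted p = 0.036) and MYB51 r = 0.880 with CYP81F2 (adjusted p = 0.036). By rho 4 of the 6 passed, and UGT74B1 and SOT16 did not (adjusted p = 0.054 each, exact permutation). Libraries of the same number deviated together in shoots, which this exchange within groups does not take into account. Among the 19173 other genes tested in shoots, CYP81F2 ranked 12th by its r with MYB51 and CYP79B2 ranked 23rd by its r with MYB34. UGT74B1, SOT16, CYP83B1 and CYP79B3 had ranks of 112, 185, 210 and 318 by r with MYB34, so many genes outside the pathway ran as closely with it. These ranks are descriptions over the same 12 libraries, since many genes vary together with the replicate number and the treatment. With the means of both the groups and the replicate numbers removed, which leaves 6 residual degrees of freedom and is given without a test, MYB51 and CYP81F2 had r = 0.941. MYB34 then had r = 0.826 to 0.928 with CYP79B2, CYP79B3, CYP83B1, SUR1 and UGT74B1, but 0.607 with SOT16, and 0.274 without the 2 farthest libraries.

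**Figure D5:**
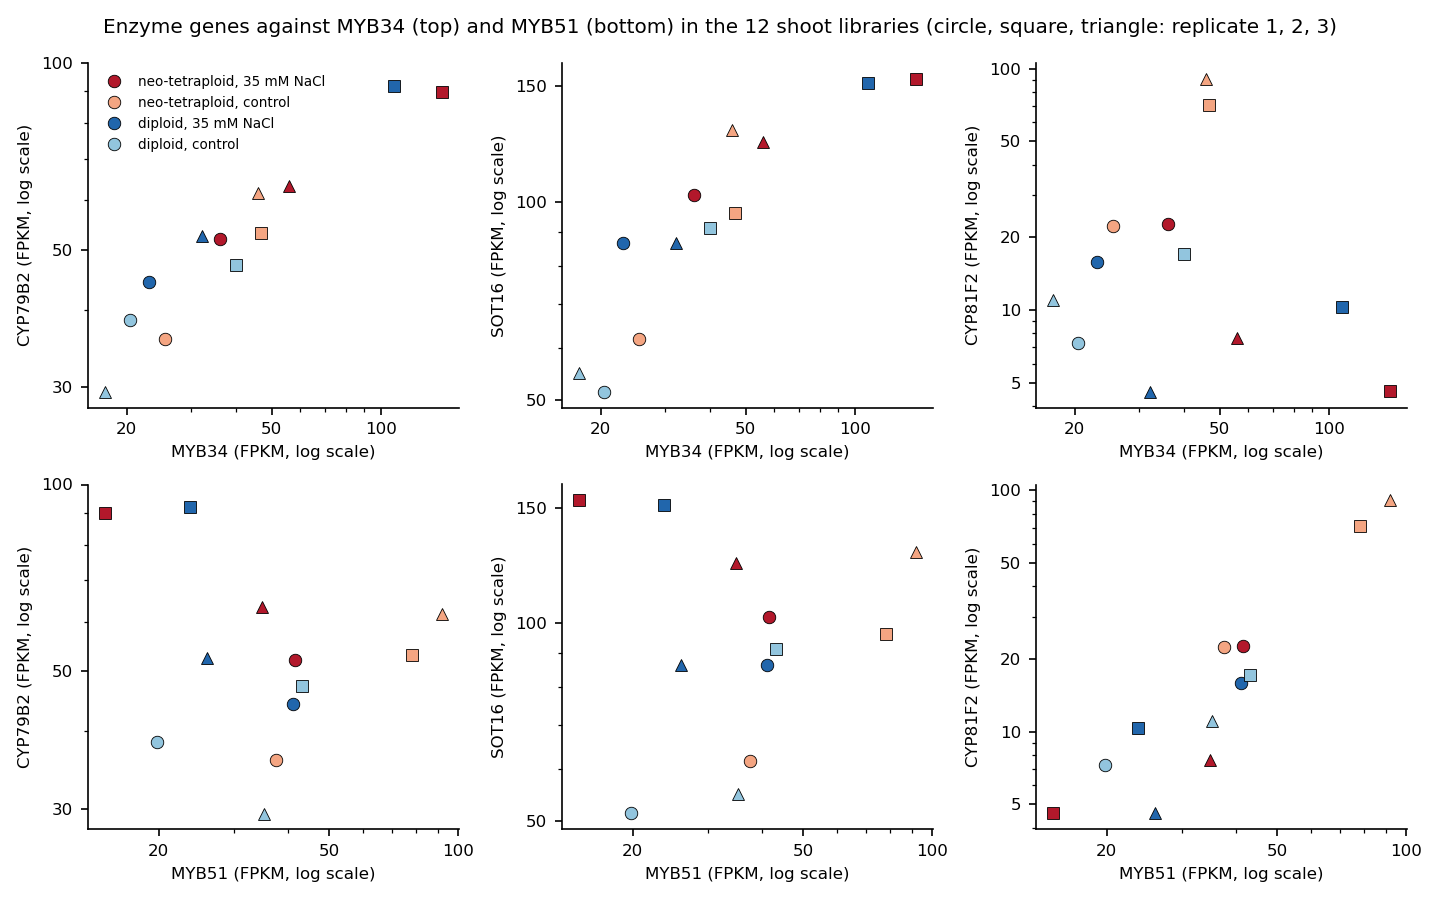
FPKM of CYP79B2, SOT16 and CYP81F2 against that of MYB34 (top) and MYB51 (bottom), all on log scales, in the 12 shoot libraries, with colours for the conditions and shapes for the replicates. CYP79B2 and SOT16 run along MYB34 (r = 0.957 and 0.912) and CYP81F2 along MYB51 (r = 0.934), while r was between -0.17 and 0.05 in the other panels.

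The upstream window of CYP81F2, the enzyme gene that varied apart from the others in shoots, is shown for comparison with those of the CYP79B pair. It lies at chr5:23187590-23187839 on the plus strand in TAIR10.1, and capitals mark W-box motifs (TTGACC or TTGACT, both strands), the sequence that WRKY factors bind.

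CYP81F2: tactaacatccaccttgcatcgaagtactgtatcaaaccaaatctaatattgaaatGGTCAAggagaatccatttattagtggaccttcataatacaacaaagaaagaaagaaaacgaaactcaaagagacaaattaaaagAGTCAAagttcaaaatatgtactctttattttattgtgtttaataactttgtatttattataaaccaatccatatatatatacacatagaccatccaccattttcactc

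The window holds 2 W-boxes, read on the other strand, at positions -194 to -189 and -109 to -104 from the start. Of the 10 windows 2 hold a W-box, those of CYP81F2 and SUR1, against 28.4% of all 27443 windows. A match of so short a motif is a description of the sequence and shows no binding.

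In roots, MYB51 did not form a single run of values. In 7 of the 12 root libraries it had 6.30 to 12.1 FPKM and in the other 5 it had 25.3 to 38.5 FPKM, with nothing between. For this reason the correlation of the levels over all 12 libraries was not tested. The higher 5 were the 3 neo-tetraploid control libraries, replicate 3 of the neo-tetraploid NaCl roots and replicate 1 of the diploid NaCl roots. CYP79B2 in these 5 had 170, 126, 117, 78.6 and 300 FPKM in the same order, and so took both its highest and one of its lowest root values at high MYB51. CYP81F2 had 36.9, 39.9, 63.2, 11.5 and 68.4 FPKM in them. Within the 7 lower libraries, r with MYB51 was 0.27 to 0.54 over the 7 enzyme genes, and none passed the test (exact permutation test, lowest p = 0.239).

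As deviations from group means, MYB51 and CYP81F2 had r = 0.859 in roots (exact permutation within groups, p = 0.0586, adjusted p = 0.146). The other enzyme genes had r from 0.101 (SUR1) to 0.672 (SOT16) with MYB51, none with an adjusted p under 0.05. Without replicate 1 of the diploid NaCl roots, a combination chosen after the data were seen, CYP81F2 had r = 0.477 with MYB51 (exact permutation p = 0.363). The other enzyme genes then had r from -0.89 to -0.215. MYB51 then had r = -0.89 with CYP79B3 (adjusted p = 0.027, exact permutation), so the sign of that relation went from 0.361 with the library to below 0 without it. In the same 11 libraries MYB34 had r = 0.933 with CYP79B2, 0.932 with CYP79B3 and 0.830 with SUR1 (adjusted p = 0.027 each, exact permutation within groups), and 0.568, 0.685 and 0.763 with all 12 (adjusted p from 0.0877 to 0.236).

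Over all 12 root libraries, MYB34 correlated with SUR1 (r = 0.746, adjusted permutation p = 0.0284, rho = 0.699, adjusted permutation p = 0.0558) and MYB122 with CYP79B2 (r = 0.761, adjusted permutation p = 0.0204, rho = 0.825, adjusted permutation p = 0.0084). These were 2 of the 14 relations of MYB34 and MYB122 in roots. Another, MYB122 with SUR1, passed by rho alone (rho = 0.776, adjusted permutation p = 0.0187, with r = 0.495). The relation of MYB122 with CYP79B2 was not called without replicate 1 of the diploid NaCl roots or without replicate 3 of the neo-tetraploid NaCl roots. That of MYB34 with SUR1 was not called without replicate 1 or 2 of the diploid control, replicate 3 of the diploid NaCl, replicate 1 or 2 of the neo-tetraploid control or replicate 3 of the neo-tetraploid NaCl roots. As deviations from group means, neither was called.

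Of all 20238 other genes tested in roots, the 5 whose log2 counts, scaled in the same way, were most like those of MYB51 over the 12 root libraries were AT3G28580 (r = 0.984), CRK10 (0.938), APS3 (0.938), CYP706A2 (0.937) and CYP81D8 (0.933). None of the 10 genes was among them. Of the enzyme genes, CYP81F2 (r = 0.674, rank 790) and SOT16 (0.639, rank 992) came highest, given as a description without a test. UGT74B1, CYP83B1, CYP79B3 and CYP79B2 had r of 0.509, 0.459, 0.414 and 0.411, and SUR1 had -0.045. As MYB51 had 2 separate ranges in roots, such an r mainly says that a gene was high in the same 5 libraries.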

How the data were processed

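Roots and shoots of neo-tetraploid and diploid Col-0 plants grown with 35 mM or no added NaCl were sequenced as poly(A) RNA in 3 replicates. The authors sequenced single-end reads on BGISEQ-500 and named HISAT, Bowtie, RSEM and the TAIR10 genome. The deposited expected counts are RSEM's estimates of the reads from each gene, and the deposited FPKM values are the authors' normalisation of them by gene length and library size. The deposited length column was not tested, and a gene not listed in a library was set to 0.

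Expected counts were rounded to whole numbers and tested with edgeR 4.0.16 (R 4.3.3), by the quasi-likelihood test with TMM scaling, on the 12 libraries of each organ (24 for comparisons of organs). Genes needed at least 10 counts in at least 3 libraries, which kept 20239 genes in roots, 19174 in shoots and 21338 in both, and Benjamini-Hochberg adjusted p-values under 0.05 over all of them were called. Differences between organs used all groups in a single fit. Library sums of 11202503 to 11909554 counts limit the precision of low genes. The bound of 3 counts given for MYB122 covers counting error only, while each SE and SD includes the spread between replicate libraries. Relations of the 7 enzyme genes with the 3 regulators used log2 counts with a prior count of 2 and permutation tests (SciPy 1.17.1), exact for 7 libraries and for deviations from group means. The fits were tested on simulated data, with settings and outcome not given here.

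The 10 genes, the context lists and the naming rule were chosen with earlier results of these data known. The rule names all 10 genes, at most the 3 called genes with the largest differences of each context list, and the 5 genes most like MYB51 in roots. The alternatives were DESeq2 1.42.0, library-size scaling, no count filter, limma 3.58.1 on log2(FPKM + 1) or log2(FPKM + 0.1), a replicate block, only the libraries compared, a fold change of 2 and each library left out. Whether the replicate numbers pair the libraries was read from the correlations of their deviations from group means. In shoots all 18 pairs with the same number had r over 0.1 (0.145 to 0.752, mean 0.374), so blocked values are given beside shoot results where a call changes. In roots and between organs not every pair did, so pairing was not assumed there. Promoter windows are from RefSeq's annotation of TAIR10.1.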

Additional observations from a re-analysis of the deposited data

Results flagged for a closer look

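A difference of the NaCl responses between organs was found for CYP79B3. Its log2 response to NaCl, averaged over ploidies, was lower in roots than in shoots by 1.35, that is root minus shoot was -1.35 (SE 0.32, adjusted p = 0.0218, edgeR's quasi-likelihood test of the difference itself). The responses were -0.53 ± 0.20 in roots and 0.82 ± 0.22 in shoots, and neither passed the test by itself (adjusted p = 0.0871 and 0.0568, edgeR). Without replicate 2 of both NaCl shoot groups, a choice made after the data were seen, the difference between organs did not pass either. Groups of 3 libraries are too small for a search for single outlying libraries.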

How the results depend on the processing

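Of the counts of called genes and relations under all alternatives, 376 stayed within 1.5 times their value, 26 became larger and 27 smaller. Many of the 376 were counts of 0 that stayed at 0, so this number is no measure of how firm the results are. With library-size scaling 4 genes were called between organs and 1 for NaCl in roots on average, and each of the 3 limma fits also gave 4 and 1. In the organ comparison, CYP79B3, CYP83B1, SUR1 and UGT74B1 then turned to 0.14, 0.13, 0.0052 and 0.024 with library-size scaling, to 0.13, 0.15, 0.050 and 0.062 with limma on log2(FPKM + 1), with or without a filter, and to 0.13, 0.15, 0.051 and 0.064 on log2(FPKM + 0.1), none called. Requiring a fold change of 2 left 2 genes between organs and 0 for NaCl in roots on average. DESeq2 called 1 gene for NaCl in diploid roots, 1 in neo-tetraploid shoots, 2 in shoots on average and 3 for organ by NaCl, where limma on log2(FPKM + 1) called 2. With only the 6 libraries compared, 1 gene was called for ploidy in control roots and 3 for NaCl in neo-tetraploid roots. The cause of these changes was not tested.

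With the replicate number as a block, 4 genes were called for NaCl in shoots on average and 1 in diploid shoots, as given above, and the block changed no other call in shoots. In roots 16 of 18 pairs with the same number had r over 0.1 (-0.012 to 0.439, mean 0.212), against 0 of 36 pairs with different numbers, and between organs 26 of 48 pairs did. This is a hint of pairing from the data and not from the design. In roots the block called 1 gene for ploidy in control plants (MYB51, log2 1.99, adjusted p = 0.0449), 2 for NaCl in neo-tetraploids, 2 in diploids and 5 on average, and 2 for organ by NaCl. The shares of all genes called with the block were 5.44%, 11.7%, 16.4%, 25.6% and 9.85% in the same order. As deviations from group means with the replicate block also removed, 11 relations were called in roots (p-values too small, since 12 residuals then hold 6 degrees of freedom). They were those of MYB51 with CYP79B2, CYP83B1, UGT74B1, SOT16 and CYP81F2 (r = 0.713 to 0.847) and of MYB122 with all enzyme genes but SUR1 (r = 0.752 to 0.951). Without the 2 farthest libraries these r were 0.577 to 0.826 and 0.482 to 0.893. As deviations from group means alone, 0 relations were called in roots, and without replicate 1 of the diploid NaCl roots 4. That last setting and the omission of replicate 2 of both NaCl shoot groups, which left 0 genes for organ by NaCl, were chosen after the data were seen.

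Omitting 1 library at a time, the count of called genes ran from 0 to 1 for ploidy in control roots and averaged over treatments in roots, 0 to 4 for NaCl in neo-tetraploid roots, 0 to 5 in diploid roots and 1 to 5 averaged in roots, 1 to 4 for organ by NaCl and 7 to 8 between organs. It stayed at 0 for the other comparisons. Called relations ran from 0 to 2 in roots and 6 to 7 in shoots. The higher counts for NaCl in roots and both for ploidy came without replicate 1 of the diploid NaCl roots. The shares of all genes called with a library omitted are not given here. Depth limits MYB122 in shoots, at 0 to 5 counts.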

Other observations

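MYB122 and SOT16 lie close together on chromosome 1 in TAIR10.1, with MYB122 at 27855578 to 27857598 on the plus strand and SOT16 at 27864345 to 27865694 on the minus strand, 6746 bases apart, with SOT18, a sulphotransferase gene of the aliphatic pathway, between them. Their levels did not run together between organs, since MYB122 was at most 0.31 FPKM in shoots while SOT16 had 51.4 to 154 FPKM there, against 61.7 to 109 FPKM in roots.

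The 3 genes of the camalexin branch, which draws on the same aldoxime as the indole glucosinolates, had summed levels of 58.5 to 355 FPKM in the other root libraries outside the diploid NaCl group. In replicate 1 of the diploid NaCl roots, with 622 FPKM, CYP79B2 had 300 FPKM, against 88.2 and 55.2 FPKM in replicates 2 and 3 of that group, while MYB34 had 90.5 FPKM, against 100.1 and 59.9 FPKM.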
